A study of Homo sapiens with 12 samples.

Results

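The genes of mitochondrial protein import were followed in HK-2 cells kept with the compound labelled Nnm, together with the matrix chaperones that fold the imported proteins and the proteases that trim or degrade them. Members were the genes whose symbol begins with TIMM or TOMM and a digit, plus HSPD1, HSPE1, HSPA9, TRAP1, GRPEL1, DNAJA3, PMPCA, PMPCB, CLPP, CLPX, LONP1, AFG3L2 and YME1L1. The rule matched 37 symbols, and 34 of them were measured, out of 10907 genes tested. TOMM6 and TOMM7 have only probe sets that they share with another gene, and the probe set of TIMM23 alone lay under the minimum signal, so these 3 received no value. All 34 measured members were above a log2 value of 4 on all 12 arrays, so none entered through the group in which it was high.

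HK-2 is an immortalised line of human proximal tubule epithelium, grown here in defined medium with EGF, hydrocortisone, insulin, transferrin and selenite. The 4 groups were cells with a low dose of Nnm for 24 h, cells with a low dose of Nnm for 48 h, and cells with vehicle alone for 24 h or for 48 h. Each held 3 arrays labelled as biological replicates. The labels give neither the concentration nor the vehicle, and all groups are 1 cell line. The values are log2 expression values, and the number of arrays limits their precision. In a bulk extract, fewer cells with a transcript and less transcript per cell cannot be told apart.

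Most mitochondrial proteins are made in the cytosol and enter through the outer membrane translocase (TOM). From there, small chaperones of the intermembrane space carry carrier proteins to the TIM22 complex, while proteins with a presequence pass to the TIM23 complex. A motor built on the matrix chaperone HSPA9 pulls the latter in, the processing peptidase removes the presequence, the HSPD1 and HSPE1 chaperonin folds the protein, and proteases such as LONP1 clear what fails to fold. The proximal tubule depends on mitochondria for the energy of reabsorption.

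HSPD1 and HSPE1, the subunit and the lid of the chaperonin, are transcribed in opposite directions from start sites at 197500274 and 197500379 on chromosome 2 (RefSeq, GRCh38.p14). The 104 bases between those starts, chr2:197500275-197500378, are shown because no other starts of members with a RefSeq promoter lie closer together. HSPE1 passed the test at 24 h and HSPD1 at neither time. The difference between their changes did not pass (exact permutation test, adjusted p = 0.0933). They are read on the strand of HSPE1, and capitals mark CACGTG, the E-box bound by MYC and MAX.
HSPD1-HSPE1: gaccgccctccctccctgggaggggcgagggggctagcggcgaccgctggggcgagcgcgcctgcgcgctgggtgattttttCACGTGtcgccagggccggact

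TRAP1, a chaperone of the HSP90 family in the matrix, had the smallest p of all members. The 250 bases before its start, chr16:3717525-3717774 on the minus strand (RefSeq, GRCh38.p14), are shown for that reason. They hold none of the motifs searched and so no capitals.
TRAP1: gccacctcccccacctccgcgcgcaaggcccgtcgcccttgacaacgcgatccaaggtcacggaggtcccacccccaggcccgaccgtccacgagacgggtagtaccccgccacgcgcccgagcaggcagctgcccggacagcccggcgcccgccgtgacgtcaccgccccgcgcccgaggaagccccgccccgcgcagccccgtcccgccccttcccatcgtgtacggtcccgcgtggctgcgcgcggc

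The E-box CACGTG was searched on both strands of the 300-base windows around start sites. So were the core of the motif bound by the factor NRF1, written GCGCATG, and the core of a heat shock element, written TTCNNGAA. RefSeq windows were found for 29 members, 31 windows in all. CACGTG stood in 7 of them (HSPA9, HSPD1, HSPE1, LONP1, TIMM10, TIMM8A and TOMM20), or 22.6%, against 7.26% of all 35116 windows, and the HSPD1 and HSPE1 windows hold the same copy. GCGCATG stood in 12.9% of the member windows (DNAJA3, LONP1, TIMM10B and TIMM9) against 4.43% of all. TTCNNGAA stood in 12.9% (HSPA9, HSPD1, TIMM10 and TOMM70) against 7.74%. A match is a description of letters and no measure of binding. Of the 7 genes with CACGTG, HSPA9, HSPE1 and LONP1 fell at 24 h, LONP1 also at 48 h, and the other 4 passed at neither time. Of the genes with GCGCATG, LONP1 and TIMM10B fell at 24 h, and of those with TTCNNGAA only HSPA9. Of all 34 members 16 fell at 24 h and 9 at 48 h, and of all genes 8.85% and 5.34%. A link between a motif and a fall was not tested.

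Before the members are described, the replicates and the cell line need a word. Arrays of replicate 2 stood apart in how far the 5′ probe set of ACTB lay below its 3′ one, a sign of RNA quality. On the log2 scale this was -1.17 to -1.09 on 4 arrays against -0.86 to -0.74 on the other 8. The same difference for GAPDH was 0.062 to 0.158 on the former and 0.029 to 0.162 on the latter. The part of RNA quality in the results was not tested. Of 14 epithelial, kidney and proximal tubule markers, 6 were measured, among them EPCAM (12.9 to 13.5 over all arrays), PAX8 (10.6 to 11.7) and DPP4 (11.1 to 12.97). PAX8 rose at 24 h, with a change of 0.65 (SE 0.19, adjusted p = 0.0398), and DPP4 rose at both times, with changes of 0.77 and 1.19. The keratins KRT8 (-0.57 and -0.70) and KRT18 (-0.46 and -0.26) and the cadherin CDH1 (-0.29 and -0.29) lay below control and did not pass at either time, and for the mean of both times KRT8 fell, with a change of -0.63 (SE 0.22, adjusted p = 0.0394). Another 7 lay under 4 on all arrays, including the tubule markers ANPEP, GGT1, AQP1, LRP2, CUBN and SLC34A1. Of 11 markers of other cells, 7 lay under 4 on all arrays, with VWF, CDH5, PTPRC and the fibroblast marker PDGFRB among them. PECAM1, a marker of endothelium like VWF and CDH5, was tested and lay close to 4 (3.80 to 4.66). Its changes of 0.06 and 0.46 did not pass (limma, adjusted p = 0.808 and 0.0652). The other fibroblast markers, the matrix genes DCN (11.5 to 12.4) and COL1A1 (7.34 to 8.92), were well above 4. At 48 h COL1A1 fell, with a log2 change of -0.53 (SE 0.16, adjusted p = 0.0491), while DCN did not pass at either time, and the part of these markers in the results was not tested.

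After 24 h with Nnm, 16 of the 34 members had fallen, 0 had risen and 18 did not pass (limma, adjusted p under 0.05 over all genes tested). Over all genes 8.85% fell and 10.6% rose. The median change of the members was -0.49 on the log2 scale, with 31 of 34 below 0. For all genes the median was 0.01, with 48.7% below 0. After 48 h, 9 members had fallen and 25 did not pass, where 5.34% of all genes fell and 8.45% rose. The median of the members was then -0.36, with 30 of 34 below 0. For all genes it was 0.02, with 47.9% below 0. The Nnm values lay wholly below the control values for 21 members at 24 h (18.7% of all genes) and for 16 at 48 h (15.8% of all genes), and at both times for 14 (9.73% of all genes). They lay wholly above for TIMM8A alone, at 48 h, where 20.3% of all genes did so, and for 0 members at 24 h, where 21.1% did. With the replicate number as a block, which pairs the arrays, 20 members passed at 48 h, 19 lower and 1 higher, where 13.7% of all genes were lower and 18.5% higher in the same fit. Leaving out 1 array of the same time moved the counts. At 24 h 5 members passed without control replicate 1, 4 without control replicate 3, 6 without Nnm replicate 1 and 4 without Nnm replicate 3. All of these were falls, and the share of all genes that fell in the same fits was 3.32%, 1.38%, 2.35% and 2.08%. At 48 h 4 passed without control replicate 1, 3 without control replicate 3, 3 without Nnm replicate 1 and 4 without Nnm replicate 3, again all falls, against 1.09%, 1.08%, 0.752% and 1.09% of all genes. The medians of the members in these 8 fits stayed between -0.47 and -0.31.

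**Figure D1:**
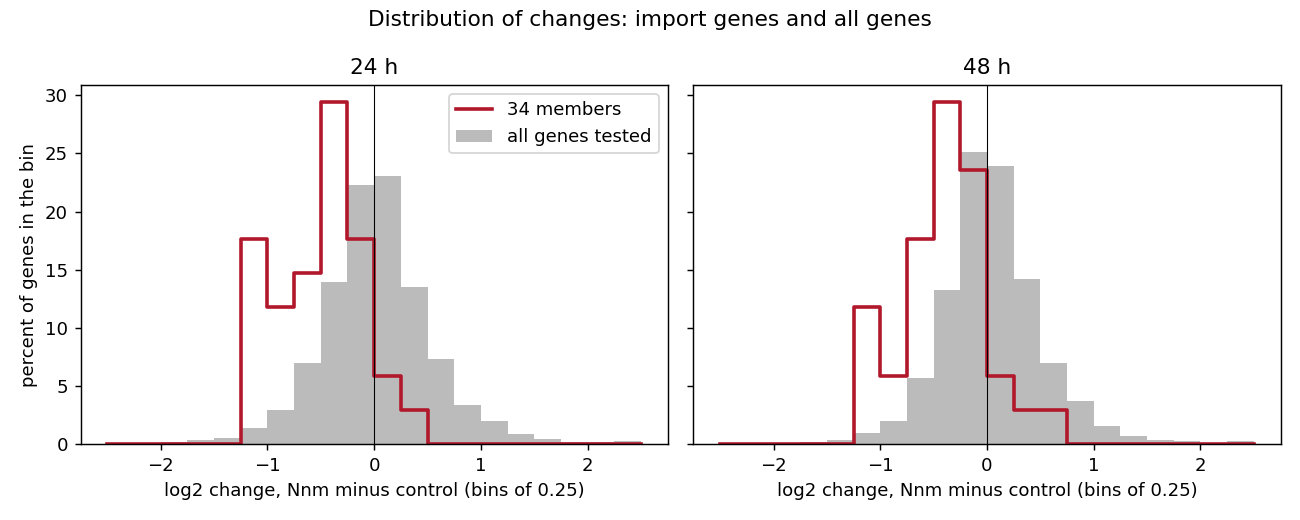
Distribution of log2 changes (Nnm minus control, bins of 0.25, x axis) as a percentage of genes (y axis) at 24 h and at 48 h, for the 34 members (red outline) and all 10907 genes tested (grey bars). The members centre near -0.49 at 24 h and -0.36 at 48 h, while all genes centre near 0.

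The 9 members that fell at 48 h (TRAP1, TIMM23B, GRPEL1, TIMM50, PMPCA, TIMM13, TIMM44, LONP1 and TOMM40) had all fallen at 24 h. A fall at both times was found in 3.01% of all genes. In this fit, which has no block, another 7 passed at 24 h alone (HSPA9, HSPE1, TIMM10B, TIMM17A, TIMM22, TOMM5 and TOMM22). A difference between the times was not shown for any of them. With the replicate block HSPA9, HSPE1, TIMM17A, TIMM22 and TOMM5 passed at 48 h as well, where 13.7% of all genes were lower. For the mean of both times, where 16.9% of all genes fell and 20.4% rose, 21 of 34 members fell and none rose. Those 5 more were TIMM8B, TOMM34, TOMM20, TOMM40L and YME1L1. The falls were larger than 2-fold for 6 members at 24 h (TIMM23B, GRPEL1, TIMM10B, TIMM50, TRAP1 and TOMM40) and for TIMM23B, TIMM50, GRPEL1 and TRAP1 at 48 h, against 2.03% and 1.16% of all genes.

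**Figure D2:**
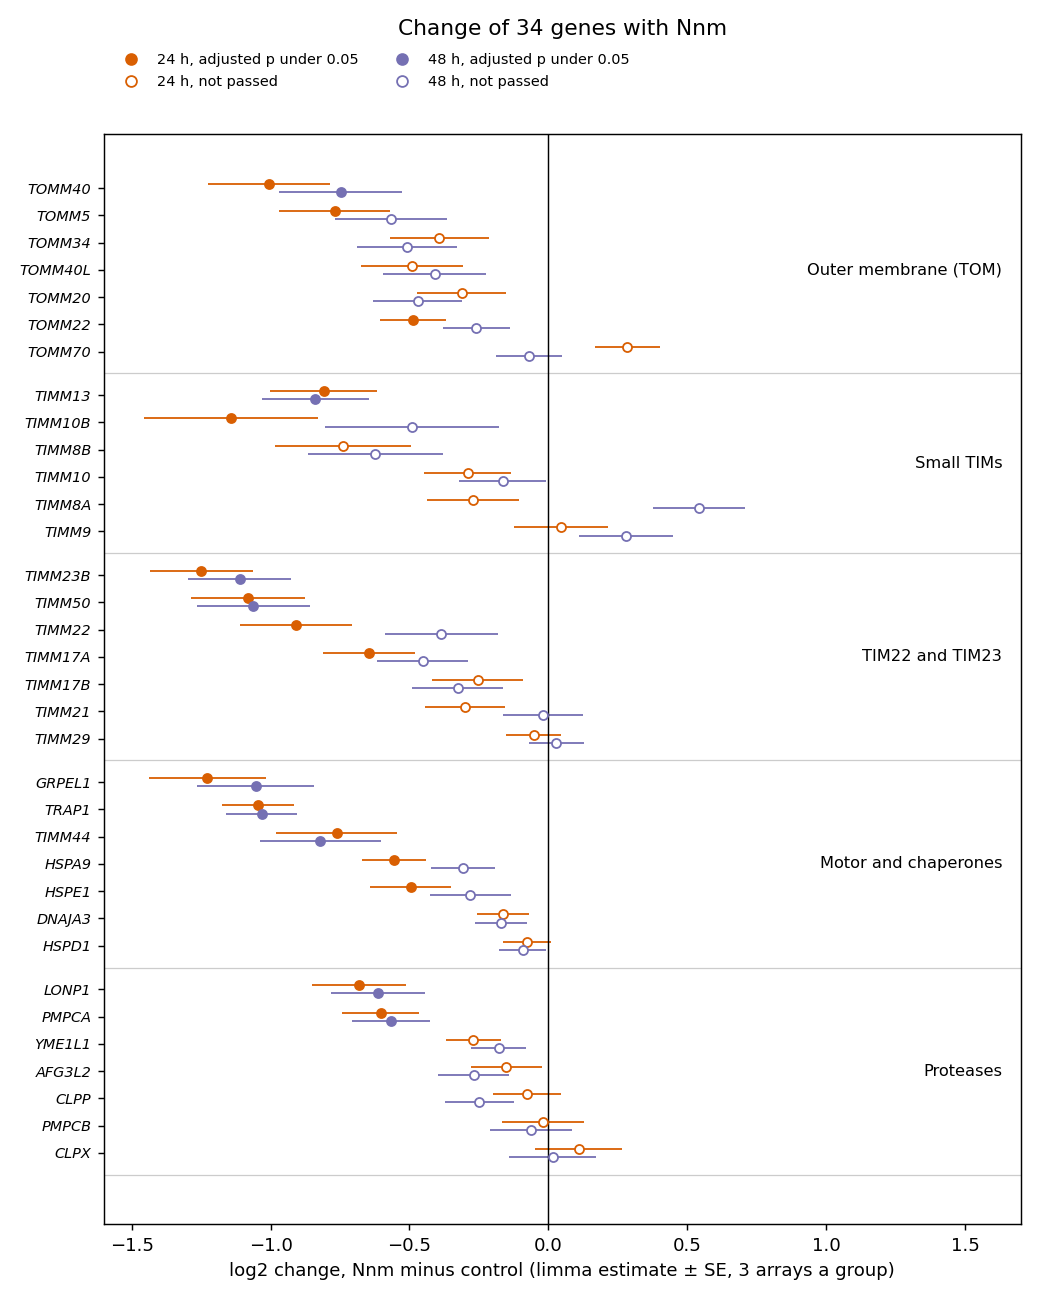
Log2 change with Nnm (x axis, limma estimate ± SE, 3 arrays a group) for each of the 34 members, grouped by role, at 24 h (orange) and 48 h (purple), with filled points for an adjusted p under 0.05. Filled points lie between -1.25 and -0.49, and the open points to the right of 0 are those of TOMM70, TIMM9, TIMM8A, CLPX and TIMM29.

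In the outer membrane translocase, TOMM40, TOMM5 and TOMM22 of 7 members fell at 24 h, and TOMM40 alone at 48 h. Of all genes 8.85% fell at 24 h and 5.34% at 48 h, the shares to set beside this and the next counts by role. No role was tested against them. TOMM40 forms the channel through which nearly all imported proteins pass. Its log2 values for replicates 1, 2 and 3 were 9.48, 9.01 and 9.58 in control and 8.69, 8.07 and 8.29 with Nnm at 24 h. At 48 h they were 9.20, 8.48 and 9.09 in control and 8.13, 8.20 and 8.20 with Nnm. The groups did not overlap at either time, although control replicate 2 was the lowest control at both. TOMM40 fell, with log2 changes of -1.01 (SE 0.22, adjusted p = 0.015) at 24 h and -0.75 (SE 0.22, adjusted p = 0.0475) at 48 h. The call at 48 h was lost with no filter on low values (adjusted p = 0.108), with only the groups compared in the fit (adjusted p = 0.0721) and with each array centred on its median (adjusted p = 0.0518).

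TOMM5, a small subunit of the same channel complex, stood at 11.62, 11.48 and 11.80 in control and 10.45, 11.24 and 10.90 with Nnm at 24 h. At 48 h it stood at 11.43, 11.42 and 11.45 in control and 10.66, 11.22 and 10.72 with Nnm. Nnm replicate 2 was closest to control at both times, and the groups did not overlap. The change was -0.77 (SE 0.20, adjusted p = 0.0256) at 24 h and -0.57 (SE 0.20, adjusted p = 0.0807) at 48 h, where it passed with the replicate block (adjusted p = 0.0396). The call at 24 h was lost with no filter on low values and with only the groups compared in the fit (adjusted p up to 0.07).

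TOMM22, a receptor that also holds the complex together, fell by 0.49 (SE 0.12, adjusted p = 0.0221) at 24 h and stood at -0.26 at 48 h. With the mean of its probe sets the fall at 24 h no longer passed (change -0.38, adjusted p = 0.0564). The main receptor TOMM20 was at -0.31 and -0.47, TOMM34, a cytosolic cochaperone of import, at -0.39 and -0.51, and TOMM40L, a relative of TOMM40, at -0.49 and -0.41, none of which passed at either time. With the replicate block TOMM34 passed at both times (adjusted p = 0.0218 and 0.0105) and TOMM20 at 48 h (adjusted p = 0.0221). TOMM70, the receptor for carrier proteins, went the other way at 24 h. Its change was 0.28 (SE 0.12, 95% interval 0.02 to 0.54, adjusted p = 0.108), which passed with the replicate block (adjusted p = 0.0413), and at 48 h it was -0.07. A dimmer probe set of TOMM70, at a mean of 9.71, gave 0.08 at 24 h and 0.06 at 48 h.

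The small TIM proteins work in pairs in the intermembrane space as chaperones of hydrophobic precursors. TIMM13 and TIMM10B fell at 24 h and TIMM13 alone at 48 h, of 6 members. TIMM13, the partner of TIMM8A, stood at 10.64, 10.63 and 10.72 in control and 9.76, 10.17 and 9.63 with Nnm at 24 h. After 48 h the values were 10.65, 10.48 and 10.76 in control and 9.57, 10.24 and 9.56 with Nnm. Replicate 2 was the highest of the Nnm arrays at both times and still under all controls. TIMM13 fell, with log2 changes of -0.81 (SE 0.19, adjusted p = 0.0191) and -0.84 (SE 0.19, adjusted p = 0.021).

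TIMM8B, a relative of TIMM8A, stood at 11.45, 11.69 and 11.67 in control and 10.47, 11.39 and 10.74 with Nnm at 24 h. Its 48 h values were 11.28, 11.36 and 11.51 in control and 10.39, 11.21 and 10.67 with Nnm. The groups did not overlap, and Nnm replicate 2 lay nearest the controls at both times. The change was -0.74 (SE 0.24, adjusted p = 0.0557) at 24 h and -0.62 (SE 0.24, adjusted p = 0.107) at 48 h, and it passed at both with the replicate block (adjusted p = 0.0108 and 0.024).

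TIMM8A is the small TIM gene lost in a syndrome of deafness and dystonia. It stood at 7.39, 7.14 and 7.50 in control and 6.87, 7.20 and 7.15 with Nnm at 24 h, which overlap. The later values were 6.68, 6.89 and 7.11 in control and 7.55, 7.15 and 7.60 with Nnm, and all Nnm values were above all controls. The change was -0.27 (SE 0.17, adjusted p = 0.262) at 24 h and 0.54 (SE 0.17, adjusted p = 0.053) at 48 h, which passed with the replicate block (adjusted p = 0.02). The difference between the times was 0.81 (95% interval 0.30 to 1.33, unadjusted p = 0.00542, limma) and did not pass over all genes. TIMM8A was the member with the smallest p for that difference.

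TIMM10B, which docks the small TIM chaperones on the TIM22 complex, fell by 1.14 (SE 0.31, adjusted p = 0.0305) at 24 h and was at -0.49 (SE 0.31) at 48 h. The call at 24 h was lost with no filter on low values and with only the groups compared in the fit (adjusted p up to 0.0809). A dimmer probe set of the gene gave -1.26 and -1.22. TIMM9 and TIMM10 form the main small TIM chaperone. TIMM10 was at -0.29 and -0.16 and passed at 24 h with the replicate block (adjusted p = 0.0156), while TIMM9 was at 0.05 and 0.28.

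Of the 7 members of the inner membrane translocases, TIMM23B, TIMM50, TIMM22 and TIMM17A fell at 24 h and the first 2 of these at 48 h. TIMM23B encodes a near copy of the channel protein TIMM23, and its probe set may not tell the genes apart, so its level is uncertain as to gene. It stood at 7.68, 7.69 and 7.77 in control and 6.30, 6.64 and 6.45 with Nnm at 24 h. By 48 h it was at 8.04, 7.86 and 7.79 in control and 6.39, 7.23 and 6.74 with Nnm. All Nnm values were below all controls of the same time. TIMM23B fell to 42.1% of control at 24 h, a log2 change of -1.25 (SE 0.18, adjusted p = 0.0057), and to 46.3% at 48 h, a change of -1.11 (SE 0.18, adjusted p = 0.00762).

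TIMM50, the receptor that hands presequence proteins from the outer membrane to the TIM23 channel, stood at 11.21, 10.87 and 11.45 in control and 10.01, 10.07 and 10.20 with Nnm at 24 h. At 48 h it stood at 11.05, 10.53 and 11.37 in control and 9.77, 9.95 and 10.04 with Nnm. The groups did not overlap, and control replicate 2 was the lowest control at both times. TIMM50 fell, with log2 changes of -1.08 (SE 0.20, adjusted p = 0.00951) and -1.06 (SE 0.20, adjusted p = 0.0124). This rests on the brighter of its probe sets: the dimmer, at a mean of 5.85, gave 0.19 at 24 h and -0.30 at 48 h, neither of which passed (adjusted p = 0.439 and 0.231). With the mean of both probe sets the change at 24 h was -0.45 (adjusted p = 0.0606).

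TIMM22, the channel for carrier proteins, fell by 0.91 (SE 0.20, adjusted p = 0.016) at 24 h and was at -0.39 at 48 h, where it passed with the replicate block (adjusted p = 0.0423). Dimmer probe sets of TIMM22 gave -0.74 and -0.72 at 24 h, and -0.005 and -0.42 at 48 h. TIMM17A, a core subunit of the TIM23 channel, fell by 0.65 (SE 0.16, adjusted p = 0.0241) at 24 h and was at -0.45 at 48 h, where it too passed with the block (adjusted p = 0.0112). Read from its faint probe set without a suffix for shared sequence, the change of TIMM17A at 24 h was -0.54 (adjusted p = 0.204). Its relative TIMM17B was at -0.25 and -0.33, the latter past the threshold with the block (adjusted p = 0.0462). TIMM21, which links TIM23 to the respiratory chain, was at -0.30 and -0.02, and TIMM29, a subunit of TIM22 and the dimmest member, at -0.05 and 0.03. TIMM29 values were almost constant within some groups, with an SD of 0.0024 for Nnm at 24 h and 0.0055 for control at 48 h. Whether its probe set follows the transcript was not tested.

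Among the 7 genes of the import motor and the matrix chaperones, GRPEL1, TRAP1, TIMM44, HSPA9 and HSPE1 fell at 24 h, and the first 3 of these at 48 h. GRPEL1 is the nucleotide exchange factor that lets HSPA9 release its client. It stood at 10.13, 10.21 and 10.57 in control and 8.87, 9.33 and 9.02 with Nnm at 24 h. After 48 h the values were 9.61, 9.71 and 9.91 in control and 8.20, 8.94 and 8.92 with Nnm. The groups lay well apart at both times, and the controls of 48 h were below those of 24 h. GRPEL1 fell to 42.7% of control at 24 h, a log2 change of -1.23 (SE 0.21, adjusted p = 0.00752), and to 48.2% at 48 h, a change of -1.05 (SE 0.21, adjusted p = 0.0139). A dimmer probe set of GRPEL1, at a mean of 8.27, gave smaller changes of -0.72 and -0.56.

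TRAP1 stood at 10.07, 9.98 and 10.16 in control and 9.00, 9.16 and 8.91 with Nnm at 24 h. Its 48 h values were 9.95, 9.76 and 9.93 in control and 8.72, 9.11 and 8.71 with Nnm. The Nnm values were all below the controls of the same time, and Nnm replicate 2 was the nearest to them at both times. TRAP1 fell to 48.4% of control at 24 h and to 48.9% at 48 h, with log2 changes of -1.05 (SE 0.13, adjusted p = 0.00496) and -1.03 (SE 0.13, adjusted p = 0.00286).

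TIMM44, which tethers HSPA9 to the channel, fell, with log2 changes of -0.76 (SE 0.22, adjusted p = 0.0354) at 24 h and -0.82 (SE 0.22, adjusted p = 0.0343) at 48 h. With no filter on low values both calls were lost (adjusted p = 0.0831 and 0.0799). The call at 24 h was also lost with only the groups compared in the fit (adjusted p = 0.0924) and without both Nnm replicate 2 arrays (adjusted p = 0.0786). HSPA9 itself, the HSP70 of the matrix, fell by 0.55 (SE 0.11, adjusted p = 0.0125) at 24 h and was at -0.31 (SE 0.11, adjusted p = 0.0931) at 48 h, where it passed with the replicate block (adjusted p = 0.0261). Dimmer probe sets of HSPA9 gave -0.50 and -0.95 at 48 h. With the mean of its probe sets HSPA9 passed at 48 h, with a change of -0.59 (adjusted p = 0.00796).

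HSPE1 stood at 12.77, 12.77 and 12.97 in control and 12.16, 12.43 and 12.44 with Nnm at 24 h. The later values were 12.32, 12.56 and 12.82 in control and 12.12, 12.39 and 12.35 with Nnm. The groups were apart at 24 h and overlapped at 48 h. HSPE1 fell by 0.49 (SE 0.15, adjusted p = 0.0391) at 24 h, and the change at 48 h was -0.28 (SE 0.15, adjusted p = 0.212), past the threshold with the replicate block (adjusted p = 0.0488). The call at 24 h was lost with no filter on low values and with only the groups compared in the fit (adjusted p up to 0.0678).

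HSPD1, the brightest member, stood at 14.51, 14.42 and 14.49 in control and 14.41, 14.34 and 14.43 with Nnm at 24 h. By 48 h it was at 14.49, 14.40 and 14.38 in control and 14.39, 14.28 and 14.32 with Nnm. All 12 values lay within 14.28 and 14.51, and the groups overlapped at both times. The change was -0.08 (95% interval -0.27 to 0.11) at 24 h and -0.09 (95% interval -0.28 to 0.10) at 48 h and did not pass. HSPD1 was brighter than 99.3% of genes, on arrays whose highest values were 15.9 to 16.1, and the part of that brightness in its small change was not tested. A second bright probe set of HSPD1 gave -0.18 and -0.10. A faint one, at a mean of 4.04, gave -0.51 and -0.48, which did not pass either (adjusted p = 0.195 and 0.241). DNAJA3, a J-domain partner of HSPA9, was at -0.16 and -0.17 and did not pass.

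Of the 7 peptidase and protease genes, LONP1 and PMPCA fell at both times. PMPCA is the substrate-binding subunit of the peptidase that removes presequences. It stood at 10.06, 9.79 and 10.18 in control and 9.33, 9.50 and 9.39 with Nnm at 24 h. At 48 h it stood at 9.64, 9.61 and 9.98 in control and 9.02, 9.24 and 9.27 with Nnm. The groups did not overlap, and replicate 2 had the smallest step between control and Nnm at both times. PMPCA fell, with log2 changes of -0.60 (SE 0.14, adjusted p = 0.0174) and -0.57 (SE 0.14, adjusted p = 0.0267).

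LONP1, the main protease of the matrix, stood at 10.08, 9.64 and 10.03 in control and 9.28, 9.35 and 9.07 with Nnm at 24 h. After 48 h the values were 10.17, 9.61 and 10.05 in control and 9.42, 9.20 and 9.36 with Nnm. The groups did not overlap, and control replicate 2 was the lowest control. LONP1 fell, with log2 changes of -0.68 (SE 0.17, adjusted p = 0.0218) and -0.61 (SE 0.17, adjusted p = 0.0374). Its call at 24 h was lost with only the groups compared in the fit (adjusted p = 0.051). The call at 48 h was lost in that fit, with no filter on low values and without both Nnm replicate 2 arrays (adjusted p up to 0.0785).

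PMPCB, the catalytic partner of PMPCA, was at -0.02 (95% interval -0.34 to 0.30) and -0.06 (95% interval -0.39 to 0.26). CLPX and CLPP, the unfolding ring and the peptidase of a second matrix protease, did not pass either. CLPX was at 0.11 (95% interval -0.24 to 0.45) and 0.02 (95% interval -0.33 to 0.36), CLPP at -0.08 (95% interval -0.35 to 0.20) and -0.25 (95% interval -0.52 to 0.02, adjusted p = 0.0435 with the replicate block). The inner membrane proteases YME1L1 (-0.27 and -0.18) and AFG3L2 (-0.15 and -0.27) did not pass, although YME1L1 passed at 24 h with the block (adjusted p = 0.0354). Other bright probe sets of YME1L1 gave -0.26 and -0.29 at 24 h, and -0.29 and -0.18 at 48 h. A faint one, at a mean of 4.34, gave -0.44 at 24 h and 0.45 at 48 h. AFG3L2 was read from a probe set at a mean of 11.54, and its other, at 7.67, gave -0.43 and -0.49.

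**Figure D3:**
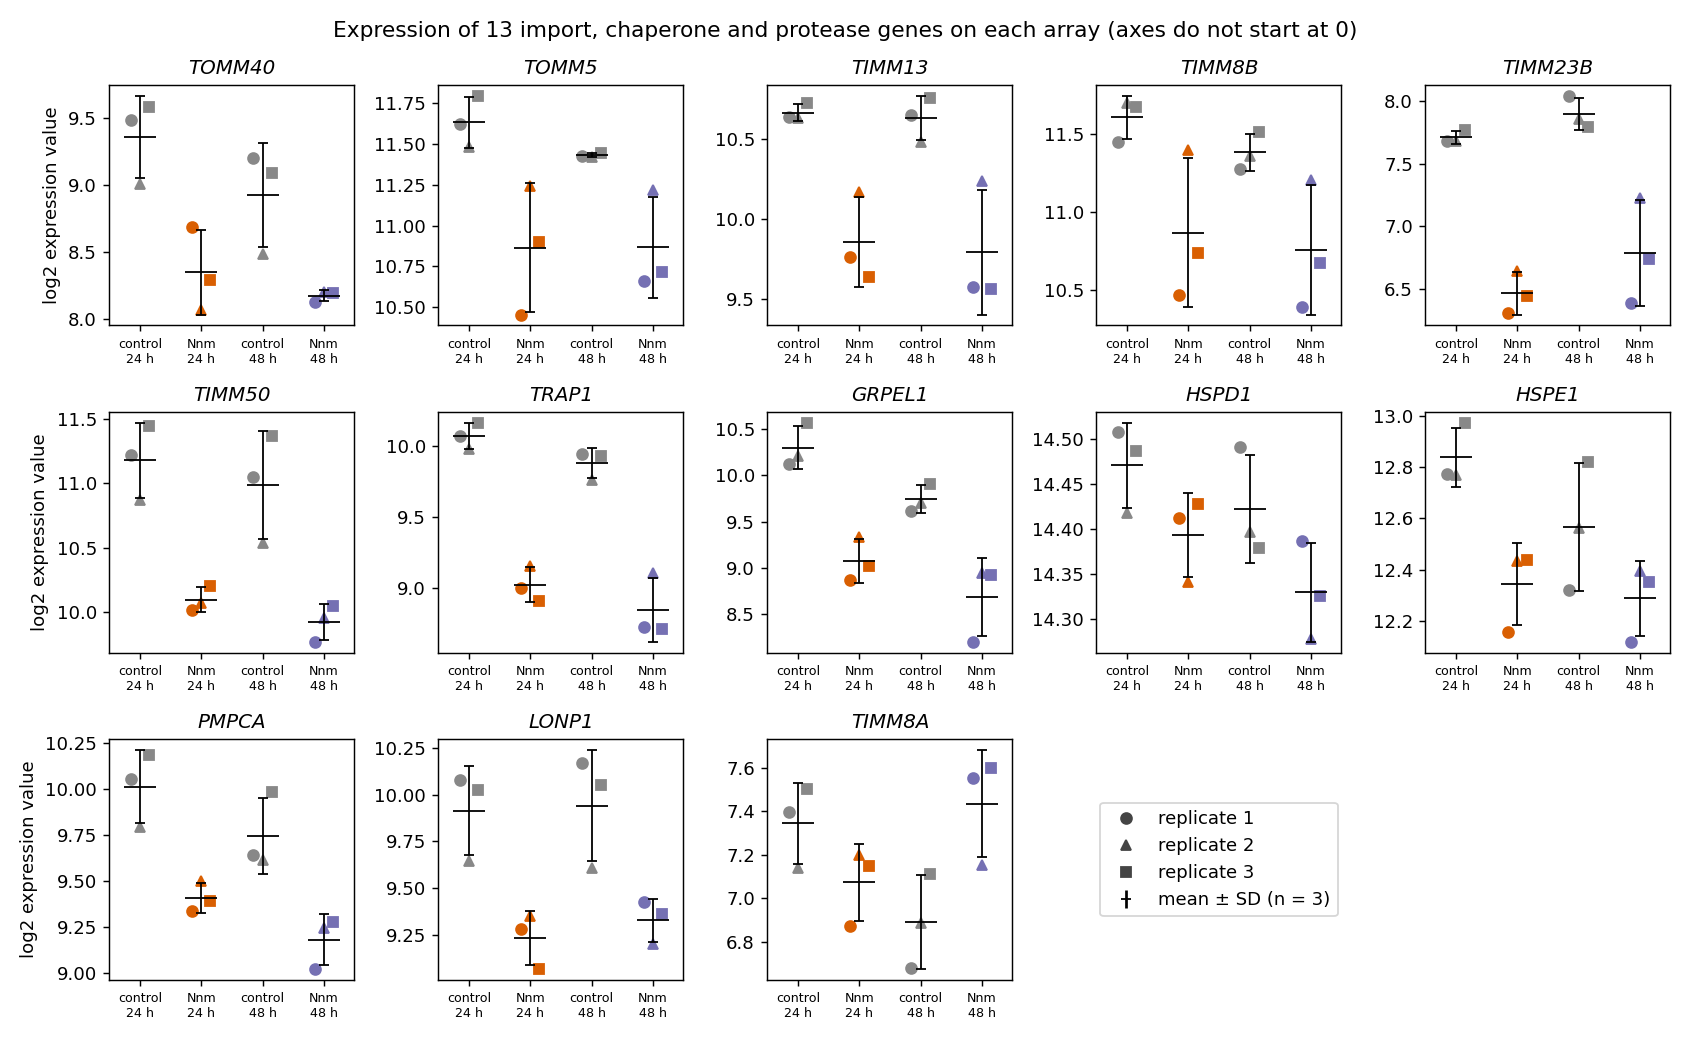
Log2 expression value (y axis) of 13 members on each of the 12 arrays, by group (x axis), with the replicate number as the point shape and the mean ± SD (n = 3) in black. All Nnm values of TOMM40, TOMM5, TIMM13, TIMM8B, TIMM23B, TIMM50, TRAP1, GRPEL1, PMPCA and LONP1 lie below the controls of the same time, while HSPD1 stays between 14.28 and 14.51.

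Partners and relatives were set against each other on the same arrays. The difference between their log2 values on each array was compared between Nnm and control by a two-sided exact permutation test within each time (400 arrangements, smallest possible p = 0.005). The 7 pairs were chosen after the values were seen, and p was adjusted over them. For the peptidase subunits, the change of PMPCA minus that of PMPCB was -0.54 over both times (exact p = 0.01, adjusted 0.0525). For TIMM8A and TIMM8B the difference was 0.82 (exact p = 0.015, adjusted 0.0525). HSPD1 minus HSPE1 was 0.30 higher with Nnm (exact p = 0.04, adjusted 0.0933). TIMM10 and TIMM10B (0.59, adjusted 0.119), TOMM40 and TOMM40L (-0.43, adjusted 0.119), CLPP and CLPX (-0.22, adjusted 0.122) and TIMM17A and TIMM17B (-0.26, adjusted 0.24) followed. No pair passed after adjustment. Between Nnm and control arrays of the same number and time, the difference had 1 sign in all 6 pairs of arrays for PMPCA minus PMPCB (-0.85 to -0.25), TIMM8A minus TIMM8B (0.36 to 1.75) and HSPD1 minus HSPE1 (0.049 to 0.52), and in 5 of 6 for the other 4. Paired in this way, a choice made after seeing the data, the exact test over the 64 sign changes gave those 3 p = 0.0312, the smallest it can give, and 0.0729 after adjustment.

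The replicates differed in the size of the change. Between the Nnm and control arrays of the same number and time, the median log2 change of the members was -0.54, -0.28 and -0.55 at 24 h and -0.36, -0.22 and -0.55 at 48 h for replicates 1, 2 and 3. Of the 34 members, 30, 28 and 30 were lower with Nnm at 24 h and 29, 30 and 32 at 48 h. Replicate 2 had the smallest median at both times. Each of the 6 comparisons had at least 28 members below 0. Medians of all genes in them were between -0.01 and 0.03. In the fit to all arrays 48.7% of all genes were below 0 at 24 h and 47.9% at 48 h. Of the 25 calls on members, 6 held without any 1 of the 12 arrays: TRAP1 and TIMM23B at both times and GRPEL1 and TIMM50 at 24 h. The other 19 were lost without at least 1 array, at adjusted p up to 0.147 (TOMM40 at 48 h), and most of these losses followed the removal of a replicate 1 or 3 array of the same time. GRPEL1 at 48 h was lost without control replicate 3 of 48 h alone (adjusted p = 0.054) and TIMM50 at 48 h without Nnm replicate 1 of 48 h alone (adjusted p = 0.0552).

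**Figure D4:**
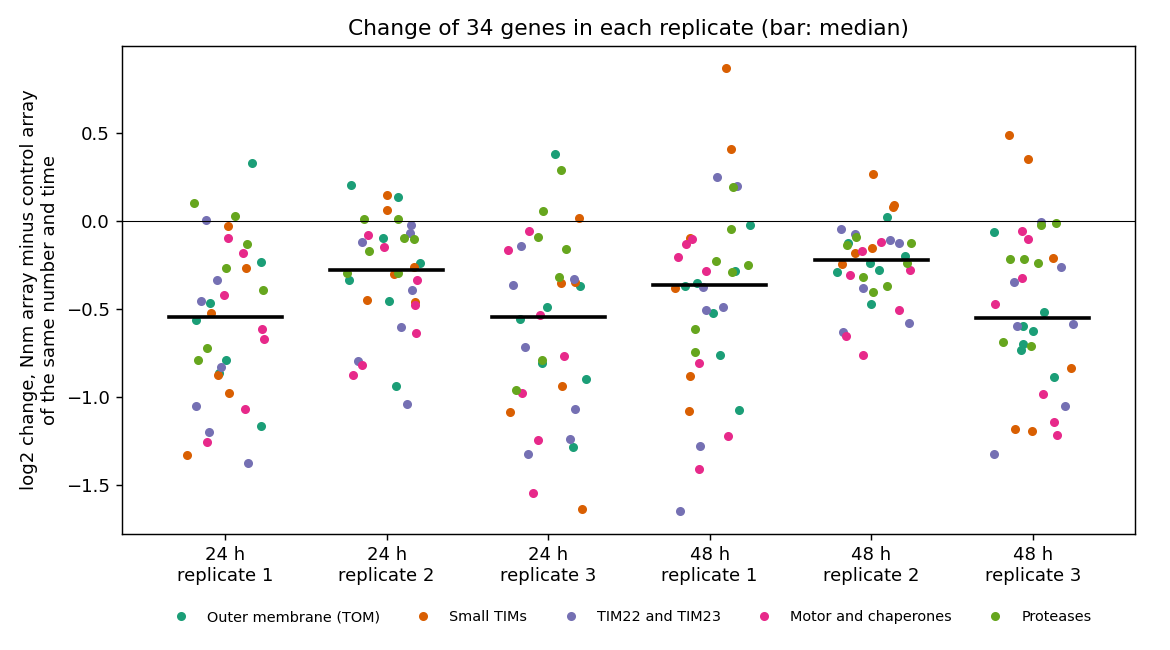
Log2 change of each of the 34 members (points, coloured by role) between the Nnm array and the control array of the same number and time (y axis), for the 6 pairs of arrays (x axis), with a bar at the median. The medians of replicate 2, -0.28 and -0.22, are the closest to 0 at each time.

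Between control cells of 48 h and 24 h, 0 of the 34 passed, where 0.128% of all genes did (0.0825% higher and 0.0458% lower), and 5 had an unadjusted p under 0.05 (GRPEL1, TIMM8A, TIMM10, TIMM21 and TOMM20), or 14.7%, against 15.7% of all genes. With the replicate block 1 passed, where 8.47% of all genes did. The median was -0.10 against -0.02 for all genes. The difference of the Nnm effect between the times passed for 0 members and for 0% of all genes (limma). Unadjusted, p was under 0.05 for TIMM8A alone of the members (2.94%) and for 698 genes in all (6.4%). The median of the difference was 0.08, with 12 of 34 members below 0. For all genes it was 0.01, with 48.1% below 0.

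Further genes of import outside the rule were taken from a list of 18, of which 17 were tested. At 24 h 4 fell and 1 rose, and at 48 h 2 fell, at medians of -0.17 and -0.23. Of all genes 8.85% fell and 10.6% rose at 24 h, and 5.34% fell and 8.45% rose at 48 h, which are the shares to set beside this and the next lists. MTX1, of the sorting machinery for outer membrane proteins, had changes of -0.66 (SE 0.14) and -0.54 (SE 0.14), and PITRM1, which degrades cut presequences, of -0.75 (SE 0.19) and -0.85 (SE 0.19), and both fell at both times. CHCHD4 and GFER, the oxidising relay that traps proteins such as the small TIMs in the intermembrane space, fell at 24 h, with changes of -0.36 (SE 0.10) and -0.80 (SE 0.20), and were at 0.04 and -0.39 at 48 h. A second probe set of GFER gave 0.43 at 24 h (adjusted p = 0.16). MTX3, a relative of MTX1, rose by 0.50 (SE 0.16, adjusted p = 0.0488) at 24 h. MIPEP, a second presequence peptidase, had changes of -1.13 and -1.17 that did not pass (adjusted p = 0.0625 and 0.0668).

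Other mitochondrial proteases, chaperones and scaffold proteins came from a list of 16, of which 15 were tested. Of these 7 fell and 1 rose at 24 h and 6 fell and 1 rose at 48 h, at medians of -0.45 and -0.36. The disaggregase CLPB fell, with changes of -1.07 (SE 0.19, adjusted p = 0.00786) and -1.28 (SE 0.19, adjusted p = 0.00518), as did BCS1L, which inserts a subunit of complex III, with -0.80 (SE 0.14) and -1.09 (SE 0.14). The cristae proteins IMMT, CHCHD3 and CHCHD6 and the prohibitin PHB2 fell at both times, with changes of -0.42, -0.49, -0.51 and -0.45 at 24 h and -0.39, -0.46, -0.66 and -0.43 at 48 h. STOML2 fell by 0.48 at 24 h and was at -0.36 at 48 h. ATP23, a metalloprotease, rose by 0.48 (SE 0.12) at 24 h and was at 0.34 at 48 h, and the protease HTRA2 rose by 0.47 (SE 0.14, adjusted p = 0.0479) at 48 h. With the replicate block STOML2 (adjusted p = 0.0137) and ATP23 (adjusted p = 0.0348) passed at 48 h as well.

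Of 16 factors described as regulators of such genes, 15 were tested, and 2 fell and 1 rose at 24 h while 2 fell and 3 rose at 48 h. The counts at 24 h are near the shares of all genes. PPRC1, a coactivator of mitochondrial biogenesis, fell, with changes of -0.94 (SE 0.15) and -0.61 (SE 0.15). Its relative PPARGC1A fell by 0.99 (SE 0.26) at 24 h and was at -0.71 at 48 h, which passed with the replicate block (adjusted p = 0.0285). MYC fell by 0.66 (SE 0.16) at 48 h. The DNA-binding factor GABPA rose by 0.93 (SE 0.17) and 0.80 (SE 0.17), and at 48 h its partner GABPB1 rose by 0.62 (SE 0.14) and NRF1 by 0.88 (SE 0.16). ATF4, ATF5, DDIT3 and CEBPB, factors of the integrated and mitochondrial stress responses, did not pass at either time, with changes of 0.57, 0.43, 0.97 and 0.26 at 24 h and 0.34, 0.04, -0.16 and -0.37 at 48 h. Of the 30 calls on genes of these 3 lists, 7 held without any 1 array (CLPB and BCS1L at both times, GABPA and PPRC1 at 24 h and NRF1 at 48 h), and the others reached adjusted p up to 0.165 (MTX3 at 24 h).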

How the data were processed

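The values are those that the authors deposited: log2 expression values for 54675 probe sets on 12 arrays, made with GCRMA per the submitters' processing notes. GCRMA subtracts background by probe sequence, normalises by quantiles and summarises probe sets. Its version and the arrays normalised together are not given in the sources used here. The log base is a reading of their range.

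Genes were assigned through the platform's annotation, and the 41091 probe sets with 1 symbol were used. Genes above log2 4 on at least 3 arrays were kept, each read from its probe set of highest mean over the 12 arrays. limma 3.58.1 in R 4.3.3 was fitted to all 12 arrays (lmFit, eBayes), without a block, and p was adjusted by Benjamini-Hochberg over 10907 genes at a threshold of 0.05. SEs and 95% intervals are limma's. Values on every array are given for the 2 members of each role lowest in p for the time-averaged effect, HSPD1, HSPE1, any member past the threshold against the direction of the rest (there was none), and the member with the smallest p for the difference between times. The scripts were tested on simulated data. Members, lists and rules were chosen with earlier results of these data known.

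Residuals of arrays with the same replicate number correlated at 0.318 to 0.696 (18 pairs), those of different numbers at -0.587 to 0.119, so the numbers pair the arrays. Promoters are RefSeq's (GRCh38.p14). Alternatives tried were the filter, the probe set, the scaling, weights, eBayes settings, blocks, the groups fitted and arrays left out.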

Additional observations from a re-analysis of the deposited data

How the results depend on the processing

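The count of members called at 24 h (16) was 9 with only the groups compared in the fit and 4 to 19 without each array in turn. At 48 h (9) it was 4 with only the groups compared, 19 with array weights, 20 with the replicate block, 15 without both Nnm replicate 2 arrays and 3 to 13 without each array in turn. For control 48 h against 24 h it was 1 with the replicate block and 0 in the other fits, and for the mean of both times (21) it was 18 to 26 over all fits. The share of all genes called moved too. For the mean it was 37.3%, and from 16.7% with no filter to 53% with array weights. Without each array in turn it was 3.7% to 29.8% at 24 h and 2.45% to 22% at 48 h. The replicate block ended no call on a member. With only the groups compared, the calls lost at 24 h were those of HSPE1, LONP1, TIMM10B, TIMM17A, TIMM44, TOMM22 and TOMM5. At 48 h they were those of GRPEL1, LONP1, PMPCA, TIMM13 and TOMM40. Fitting with no filter on low values ended the calls of HSPE1, TIMM10B, TIMM44 and TOMM5 at 24 h. At 48 h it ended those of LONP1, TIMM44 and TOMM40. Fitting with no filter tested 19775 genes, more than the other fits, so calls over all genes are given as shares. At 24 h the share called was 19.4% in the main fit and 6.43% with no filter. With array weights it was 44.6%, with the replicate block 38.8% and with the block within each time 30.5%. With only the groups compared it was 7.67%, and without both Nnm replicate 2 arrays 34%. At 48 h it was 13.8% in the main fit, and the other fits gave, in the same order, 4.45%, 31.8%, 32.2%, 23%, 4.71% and 28.9%. Centring on the median of the genes tested, chosen after seeing the data, brought the share of rises among the calls at 48 h from 61.3% to 53.9%.

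Direction turned for TIMM50 at 24 h (0.19) and GFER at 24 h (0.43) with probe sets of unshared sequence first, and for HTRA2 at 24 h with the mean of its probe sets (0.087). Other turns were in changes near 0 that never passed: CLPX at 48 h (-0.13 with the mean of its probe sets, -0.011 by quantiles, -0.032 centred on tested genes, -0.012 without both Nnm replicate 2 arrays), CLPP at 24 h (0.014 without those arrays), PMPCB at 24 h (0.020 by quantiles), and TIMM29 (-0.011 and -0.019) and CHCHD4 (-0.0027 and -0.0054) at 48 h by quantiles and centred on tested genes. Without each array in turn the ranges were -0.13 to 0.014 for CLPP at 24 h, -0.021 to 0.19 for CLPX at 24 h, -0.14 to 0.12 for CLPX at 48 h, -0.14 to 0.083 for PMPCB at 24 h, -0.14 to 0.036 for PMPCB at 48 h, -0.14 to 0.063 for TIMM21 at 48 h, -0.054 to 0.096 for TIMM29 at 48 h, -0.024 to 0.11 for TIMM9 at 24 h and -0.15 to 0.067 for HTRA2 at 24 h. The cause of these turns was not tested. Replicates number 3 a group, so small changes are not resolved.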
